A study of Mus musculus with 34 samples.

Results

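The genes described here are 36 acinar genes of the mouse pancreas: digestive enzymes, zymogen granule proteins, protease inhibitors and acinar transcription factors. They were chosen as a list of symbols and matched by name to a table of 48709 genes. All 36 were found, and all 36 were among the 17616 genes that passed the filter on low counts, which asks for at least 10 counts in about as many libraries as the smallest group holds.

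RNA was sequenced from isolated pancreatic islets, so the labelled tissue is endocrine and acinar cells are not part of it. Every library came from mice with the RIP-DTR transgene (genotype RIP-DTR HTZ in the labels), a diphtheria toxin receptor under control of the rat insulin promoter, so that diphtheria toxin (DT) acts on beta cells. The groups were CTRL with no treatment (n = 3), DT at 5 DPA (n = 4) and DT at 30 DPA (n = 4). The other groups, on SD or HFD, are titled 10WPA, or 10W where untreated, and 10 WPA below covers both. The SD groups were CTRL (untreated, n = 3), DT (n = 4) and STZ (n = 4). The HFD groups were CTRL (n = 4), DT (n = 3) and STZ (n = 4). STZ is streptozotocin at 75 mg/kg, a toxin taken up by beta cells. The design text speaks of partial beta-cell ablation with follow-up, and the labels do not spell out DPA, WPA, SD or HFD. The STZ libraries have the transgene as well, and the labels give no DT dose, strain, age or number of animals per library. Nothing says that the libraries of a group came from separate animals, so p-values measure the spread between libraries only.

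Acinar cells fill their apical side with zymogen granules and release them into the duct when food arrives. Amylase cuts starch, lipases and their cofactor colipase cut fat, and trypsins, chymotrypsins, elastases and carboxypeptidases cut protein; the proteases are stored as inactive zymogens, and trypsin sets off the activation of the others in the gut. The genes are switched on together by the PTF1 complex, in which PTF1A binds an E-box and RBPJL, its acinar partner, binds a neighbouring site, with NR5A2 and BHLHA15 (MIST1) also acting on the acinar programme and on granule formation.

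Because the genes share this control, stretches of 3 promoters are shown. RefSeq promoter windows (build GRCm38.p6, 250 bases before to 50 after the start, 300 in all) were found for 28 of the 36 genes, 29 windows in all since Nr5a2 has a pair. Capitals mark the E-box form CACCTG and the RBPJ site TTTCCC, each searched on both strands (on the other strand they read CAGGTG and GGGAAA). Cela1, an elastase, lies at chr15:100687871-100688170 on the minus strand, with CACCTG at -109 and TTTCCC at -99 from the start. Prss2, a trypsin, lies at chr6:41521526-41521825 on the plus strand and holds CACCTG at -169 and a pair of TTTCCC sites. Cpb1, carboxypeptidase B1, lies at chr3:20275684-20275983 on the minus strand and holds CACCTG at -94 and no TTTCCC.
Cela1: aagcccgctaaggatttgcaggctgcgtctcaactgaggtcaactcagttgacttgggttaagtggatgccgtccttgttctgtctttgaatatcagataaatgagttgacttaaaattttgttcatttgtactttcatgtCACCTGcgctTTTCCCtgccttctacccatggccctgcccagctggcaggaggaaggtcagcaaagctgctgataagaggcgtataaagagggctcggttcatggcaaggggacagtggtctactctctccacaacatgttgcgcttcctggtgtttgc
Prss2: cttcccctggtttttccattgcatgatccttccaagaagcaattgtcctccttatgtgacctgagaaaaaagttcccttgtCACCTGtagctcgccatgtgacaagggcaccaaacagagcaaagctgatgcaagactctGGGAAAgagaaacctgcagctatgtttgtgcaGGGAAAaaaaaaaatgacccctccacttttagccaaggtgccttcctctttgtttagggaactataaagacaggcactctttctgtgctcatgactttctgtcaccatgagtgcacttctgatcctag
Cpb1: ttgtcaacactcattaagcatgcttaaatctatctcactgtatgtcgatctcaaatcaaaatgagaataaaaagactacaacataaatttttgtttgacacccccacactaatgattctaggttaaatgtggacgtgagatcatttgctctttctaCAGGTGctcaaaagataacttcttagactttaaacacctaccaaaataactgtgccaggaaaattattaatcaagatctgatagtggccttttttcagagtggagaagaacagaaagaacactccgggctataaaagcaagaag

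CACCTG was found in 17 of the 29 windows (58.6%), against 20.2% of all 32851 promoter windows of the same length. TTTCCC was found in 10 (34.5%), against 25.2%, and both in 7 (24.1%), against 4.86%. The general E-box CANNTG, which includes CACCTG, was in 24 of 29 (82.8%) and in 72.3% of all windows. The windows of Amy2a1, Cuzd1, Gp2, Pla2g1b, Pnlip, Pnliprp1, Ptf1a, Rnase1 and Sycn hold neither CACCTG nor TTTCCC. Some windows belong to related genes and are alike in sequence, such as those of Cela3a and Cela3b, so the 29 are not independent. These are letter matches in short windows and nothing was measured at them.

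Total counts ran from 11083117 to 18918348 per library. CPM below means counts scaled to a common library size after TMM scaling, a correction for libraries in which a few genes take a large share of the counts. Islet hormone and granin genes (7 markers) summed to 49184 CPM or more in every library. The 10 enterocyte markers summed to 1660.3 to 20208 CPM in 8 libraries (CTRL replicate 2, DT 5 DPA replicates 1, 2 and 4, DT 30 DPA replicate 2, STZ SD replicates 1 and 4, DT HFD replicate 1) and to 52.3 to 288 CPM in the other 25. Another library is titled CTRL HFD while its treatment label reads DT; it was placed in no group and enters no comparison.

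The amount of acinar transcript differed widely between libraries. The 36 genes together took from 0.414% of all counts (95% Wilson interval 0.4102% to 0.4171%, counting error only) in CTRL replicate 2 to 42.8% (42.77% to 42.83%) in STZ HFD replicate 4. In CPM the sums were 3356 and 922431, a 275-fold span, and the next highest library, DT SD replicate 4, stood at 257295. Of the 36 genes, 35 had their highest CPM of 33 libraries in STZ HFD replicate 4, and 29 their lowest in CTRL replicate 2 (Cela3a and Prss1 tied there at 0 with other libraries). The exception at the top, Ctrc, was highest in CTRL SD replicate 3, at 1587 CPM. TMM scaling gave STZ HFD replicate 4 the smallest factor, 0.464; by raw total its sum was 428001 CPM. In bulk RNA, fewer cells of a type and less RNA per cell cannot be told apart.

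The spread inside groups was wide. Summed CPM was 18801, 3356 and 19913 in the CTRL libraries, 12692, 15977, 93291 and 23941 at 5 DPA, and 36548, 14597, 102317 and 73711 at 30 DPA. On SD it was 9939.8, 127355 and 233173 in CTRL, 138046, 58306, 201849 and 257295 after DT, and 52996, 149001, 249202 and 8772 after STZ. On HFD it was 80337, 50257, 43919.7 and 123603 in CTRL (replicates 2 to 5), 17562, 10509 and 31990.2 after DT, and 11019, 20229.6, 124169 and 922431 after STZ. The ratio of the highest to the lowest library of a group ran from 2.81 in CTRL HFD to 83.7 in STZ HFD. DT SD and DT HFD did not overlap, with means of 163874 ± 85598 (SD, n = 4) and 20020.2 ± 10949.7 (n = 3), 8.19-fold apart, and every DT HFD library also lay below every CTRL HFD library (74529 ± 36368, n = 4). The other groups at 10 WPA overlapped on each diet.

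**Figure D1:**
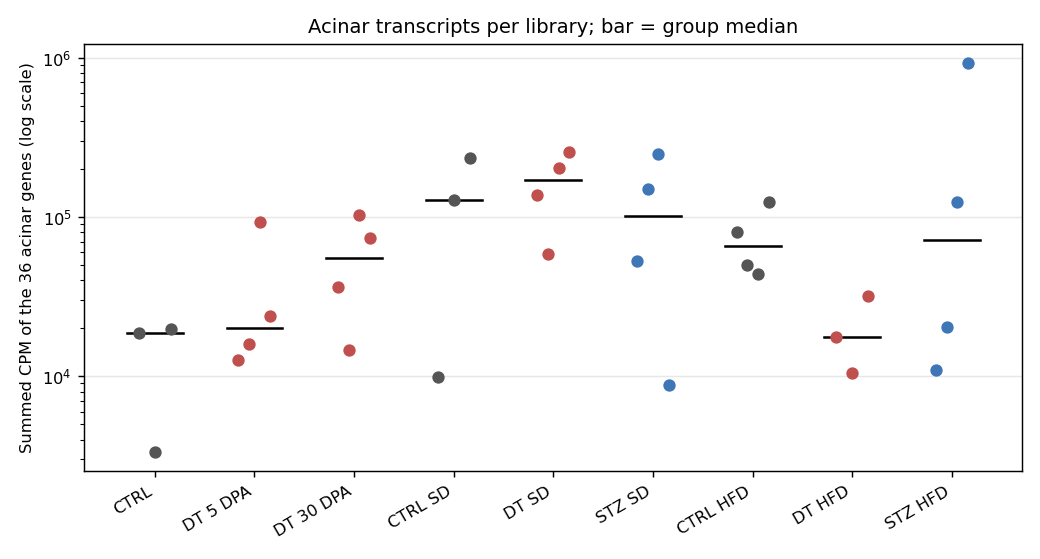
Summed CPM of the 36 acinar genes (log axis) in each of 33 libraries, by group; points are libraries, bars are group medians, colours are treatments. DT HFD lies between 10509 and 31990.2 CPM, below all DT SD libraries (58306 to 257295), while STZ HFD spans 11019 to 922431.

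Between genes, levels were compared per length from the deposited TPM values. Amy2a1, pancreatic amylase, had the highest TPM of the 36 in 21 of 33 libraries (median 16085 TPM, 125 to 127962), and Ctrb1, chymotrypsinogen B1, in the other 12 (median 11953, 1057 to 66439). Prss2 (trypsin 2, median 7977), Pnlip (pancreatic lipase, 7671) and Clps (colipase, the cofactor that anchors lipase to fat droplets, 7157) came next by median TPM, then Cela1 (6759) and Try4 (a trypsin, 6182). The transcription factors stood far lower: median 18.7 TPM for Bhlha15, 7.03 for Rbpjl, 2.98 for Ptf1a and 2.68 for Nr5a2. Cela3a was the lowest, at a median of 0.597 TPM, with no count in 5 libraries. The Amy2a1 level rests on an annotated transcript of 890 bases and is taken up again below.

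To see whether the genes move as a unit, each gene's count was divided by that of Cpb1, which cleaves C-terminal basic residues, in the same library. This ratio does not depend on library size. Cpb1 itself was 967, 161 and 1246 CPM in CTRL, 687, 792, 5062 and 1288 at 5 DPA and 2036, 748, 5468 and 3631 at 30 DPA. On SD it was 509, 6598 and 11932 in CTRL, 7530.1, 3082, 11145 and 13958 after DT and 2757, 8084, 13623 and 365 after STZ. On HFD it was 4211, 3021, 2888 and 7081 in CTRL, 1026, 635 and 1898 after DT and 565, 1137, 7289.7 and 54253 after STZ. Within each group the order of libraries was that of the sums.

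For 15 of the other 35 genes the log2 ratio to Cpb1 had an SD below 0.3 over the 33 libraries, while Cpb1 itself ranged 336-fold. They are Cpa1, Cela1, Cela2a, Cela3b, Ctrb1, Ctrl, Prss2, Try10, Pnlip, Pnliprp2, Cel, Rnase1, Klk1, Gp2 and Serpini2. For Cpa1, the other carboxypeptidase, the SD was 0.16 and the whole range 1.63-fold; for Ctrl, a chymotrypsin-like protease, 0.17 and 1.56-fold; for Pnlip 0.18 and 1.92-fold. Another 12 genes had an SD between 0.3 and 1, among them Clps (0.31), Sycn (syncollin, a granule membrane protein, 0.54), Rbpjl (0.55), Try5 (0.59), Ptf1a (0.75) and Zg16 (0.80). In 8 the SD was 1 or more: Amy2a1 (1.07), Spink1 (1.10), Cela3a (1.28), Prss3 (1.31), Bhlha15 (1.4), Prss1 (1.47), Nr5a2 (1.52) and Ctrc (2.08). Cela3a and Prss1 had medians of only 4 and 20 counts, where counting error alone widens a ratio. Across the 33 libraries 25 of the 35 genes had a correlation of log2 CPM with Cpb1 of 0.95 or more, as a description, since all points share library composition.

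**Figure D2:**
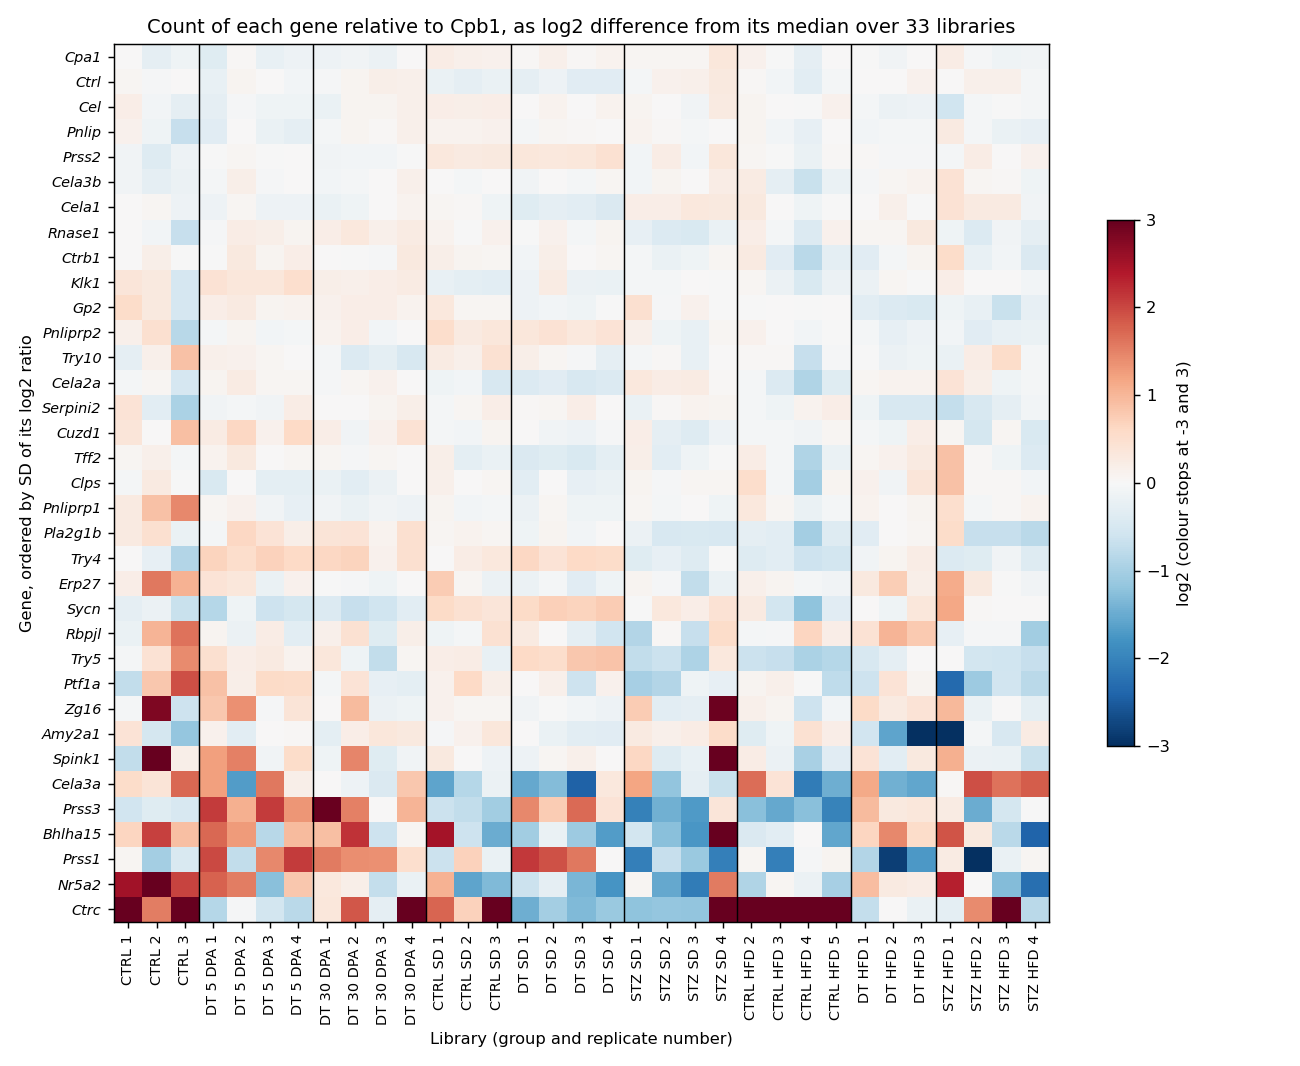
Counts of 35 acinar genes relative to Cpb1 in 33 libraries, as the log2 difference from each gene's median ratio; rows are ordered by the SD of the ratio and vertical lines separate groups. The upper rows, from Cpa1 (SD 0.16) to Serpini2 (0.29), stay near 0 in nearly all libraries, and the bottom rows, ending with Ctrc (2.08), do not.

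Fat digestion followed Cpb1 closely. Pnlip was 2001, 281 and 1477 CPM in CTRL, 1028, 1501, 8428 and 2035 at 5 DPA and 3703, 1496, 10546 and 7618 at 30 DPA. On SD it was 1040.1, 13418 and 24941 in CTRL, 13822, 6071, 21742 and 26678 after DT and 5597, 15639, 24655 and 697 after STZ; on HFD 8462, 5423, 4649.6 and 13532, then 1831, 1161 and 3423, then 1285, 2054, 12078 and 86996. Every DT HFD library lay below every CTRL HFD and every DT SD library. The Pnlip to Cpb1 ratio differed by -0.11 on the log2 scale between HFD and SD within treatment (means 0.86 and 0.97, 11 libraries each; exact permutation test, two-sided, p = 0.0293, adjusted p = 0.0704 over 12 ratio tests). By the same exact test, leaving out STZ HFD replicate 1 gave -0.15 with an adjusted p of 0.00308. With Cpa1 in place of Cpb1 the difference turned to 0.04, with an adjusted p of 0.440 by that test. Clps was 666, 139 and 886 CPM in CTRL, 359, 573, 2929 and 751 at 5 DPA, 1272, 427, 3447 and 2598 at 30 DPA, and 405, 4714 and 8960.2 in CTRL SD. It was 4344, 2201, 6711 and 8607 in DT SD, 2080.3, 5667, 10098 and 272 in STZ SD, 4350.0, 2065, 1019.7 and 5382 in CTRL HFD, 804, 423 and 1737 in DT HFD and 743, 826, 5341 and 36501 in STZ HFD. Its ratio to Cpb1 did not pass in any of 3 comparisons: 0.10 for diet (adjusted p = 0.680), -0.01 for DT (0.971) and 0.15 for STZ (0.680), by the same exact test. The lowest Clps ratio, -1.5, was that of CTRL HFD replicate 4 and the highest, 0.39, that of STZ HFD replicate 1. The other fat-digesting members, Pnliprp1, Pnliprp2, Cel (bile salt-dependent lipase) and Pla2g1b (a phospholipase), had ratio SDs of 0.33, 0.28, 0.17 and 0.41; Pnlip, Pnliprp1 and Pnliprp2 are neighbours on the plus strand of chromosome 19 (Pnlip at chr19:58652498-58681788).

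Amylase is where the annotation matters. The mouse genome holds a row of near-copies on the minus strand of chromosome 3: Amy2a5, Amy2a4, Amy2a3, Amy2a2 and, last, Amy2a1 (chr3:113529403-113532428), all protein-coding in GENCODE M21. The Amy2a1 model spans 3026 bases against 11604 for Amy2a2, and its 890-base transcript differs from that of Amy2a2 at 1 position in a local alignment. The transcripts of Amy2a2, Amy2a3 and Amy2a4 are identical over 3717 bases. Which copy a read was given to depends on the authors' counting, so values of single copies are uncertain. Their promoters are shown because they hardly tell the copies apart: capitals mark the 9 differing columns of 300 aligned for Amy2a1 (chr3:113532379-113532678, minus strand) and Amy2a2 (chr3:113356609-113356908, minus strand), and the windows of Amy2a2, Amy2a3 and Amy2a4 are identical.
Amy2a1: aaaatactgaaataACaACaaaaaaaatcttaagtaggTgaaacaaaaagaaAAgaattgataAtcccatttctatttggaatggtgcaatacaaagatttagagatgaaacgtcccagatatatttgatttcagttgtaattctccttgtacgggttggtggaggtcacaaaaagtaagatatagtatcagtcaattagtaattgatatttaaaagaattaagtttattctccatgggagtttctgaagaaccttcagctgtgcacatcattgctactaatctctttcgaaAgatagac
Amy2a2: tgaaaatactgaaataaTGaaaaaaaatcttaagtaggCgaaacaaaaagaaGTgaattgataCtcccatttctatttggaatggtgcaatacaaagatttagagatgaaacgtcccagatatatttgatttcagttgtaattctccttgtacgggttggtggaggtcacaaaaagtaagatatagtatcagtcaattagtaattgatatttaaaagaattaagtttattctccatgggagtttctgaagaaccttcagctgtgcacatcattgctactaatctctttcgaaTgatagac

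Amy2a1 was 3183, 281 and 1384 CPM in CTRL, 1855, 1594, 12628 and 3298 at 5 DPA, 4156, 2123, 17134 and 11039.8 at 30 DPA, and 1242, 18018 and 37743 in CTRL SD. It was 19038, 6632, 22388 and 27775 in DT SD, 8375, 22416, 39784 and 1337 in STZ SD, 8108, 6840.2, 9908 and 20139 in CTRL HFD, 1724, 527 and 489 in DT HFD and 51.7, 2733, 13041 and 159700.2 in STZ HFD. DT HFD lay below DT SD and CTRL HFD without overlap. STZ HFD replicate 1 was the lowest library, below CTRL replicate 2, although its Cpb1 of 565 CPM was above the 161 CPM there. Relative to Cpb1, Amy2a1 counts ranged 40.0-fold, from 0.0914 per Cpb1 count in STZ HFD replicate 1 to 3.66 in STZ SD replicate 4; DT HFD stood at 1.68, 0.830 and 0.257.

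Relative to Cpb1, the 4 other copies did not drop in the same libraries. Amy2a2 to Amy2a5 summed to 6.59 counts per Cpb1 count in STZ HFD replicate 1 and to 6.22, 6.37 and 7.05 in DT HFD, within the range of 5.04 to 8.62 over all 33 libraries (1.71-fold). In STZ HFD replicate 1 there were 935 counts of Amy2a1 beside 17000 of Amy2a2, 17171 of Amy2a3 and 17163 of Amy2a4. In no library did the highest of Amy2a2, Amy2a3 and Amy2a4 exceed the lowest by more than 3.10%. The ratio of Amy2a1 to Amy2a2 ran from 0.0550 to 2.77, with a median of 1.43.

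The tests of amylase ratios follow from this. On the log2 scale Amy2a1 over Cpb1 was lower on HFD than on SD within treatment by -1.10 (means 0.38 and 1.39, 11 libraries each; exact permutation test, two-sided, p = 0.00194, adjusted p = 0.0116) and lower after DT than in CTRL within diet by -1.10 (0.42 and 1.4, 7 libraries each; p = 0.00163, adjusted p = 0.0116). Amy2a1 over Pnlip was lower after DT by -1.04 (adjusted p = 0.0163) and its HFD minus SD difference was -0.98 (adjusted p = 0.0704). For STZ against CTRL the differences were -0.57 over Cpb1 (adjusted p = 0.680) and -0.52 over Pnlip (0.842). The diet difference over Cpb1 was -0.11 in CTRL, -1.6 after DT and -1.57 after STZ, and the DT difference was -0.36 on SD and -1.85 on HFD, so that the DT HFD libraries enter both passing comparisons. The STZ value rests mainly on STZ HFD replicate 1, at -3.45 on the log2 scale. STZ HFD replicates 2, 3 and 4 stood at 1.27, 0.84 and 1.56, and STZ SD at 1.47 to 1.87. After DT the HFD libraries, at 0.75, -0.27 and -1.96, all lay below the SD libraries, at 0.99 to 1.34. With Cpa1 in place of Cpb1 the diet difference was -0.94 (adjusted p = 0.0860), and without the enterocyte-rich libraries -1.26 (0.127). Without STZ HFD replicate 1 the diet difference was -0.71 (adjusted p = 0.0122), and without DT HFD replicate 3 the DT difference was -0.73 (0.0230). Over Pnlip the DT difference had an adjusted p of 0.0514 without CTRL HFD replicate 3 or 5 and 0.0533 without DT HFD replicate 3, where it was -0.68. With Amy2a1 to Amy2a5 summed, a choice made after the copies were seen, the same differences over Cpb1 were -0.24 for diet (adjusted p = 0.00140) and -0.25 for DT (0.00980), and over Pnlip -0.13 (0.332) and -0.19 (0.0718). The difference of summed amylase was thus smaller than that of Amy2a1 alone in each comparison.

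**Figure D3:**
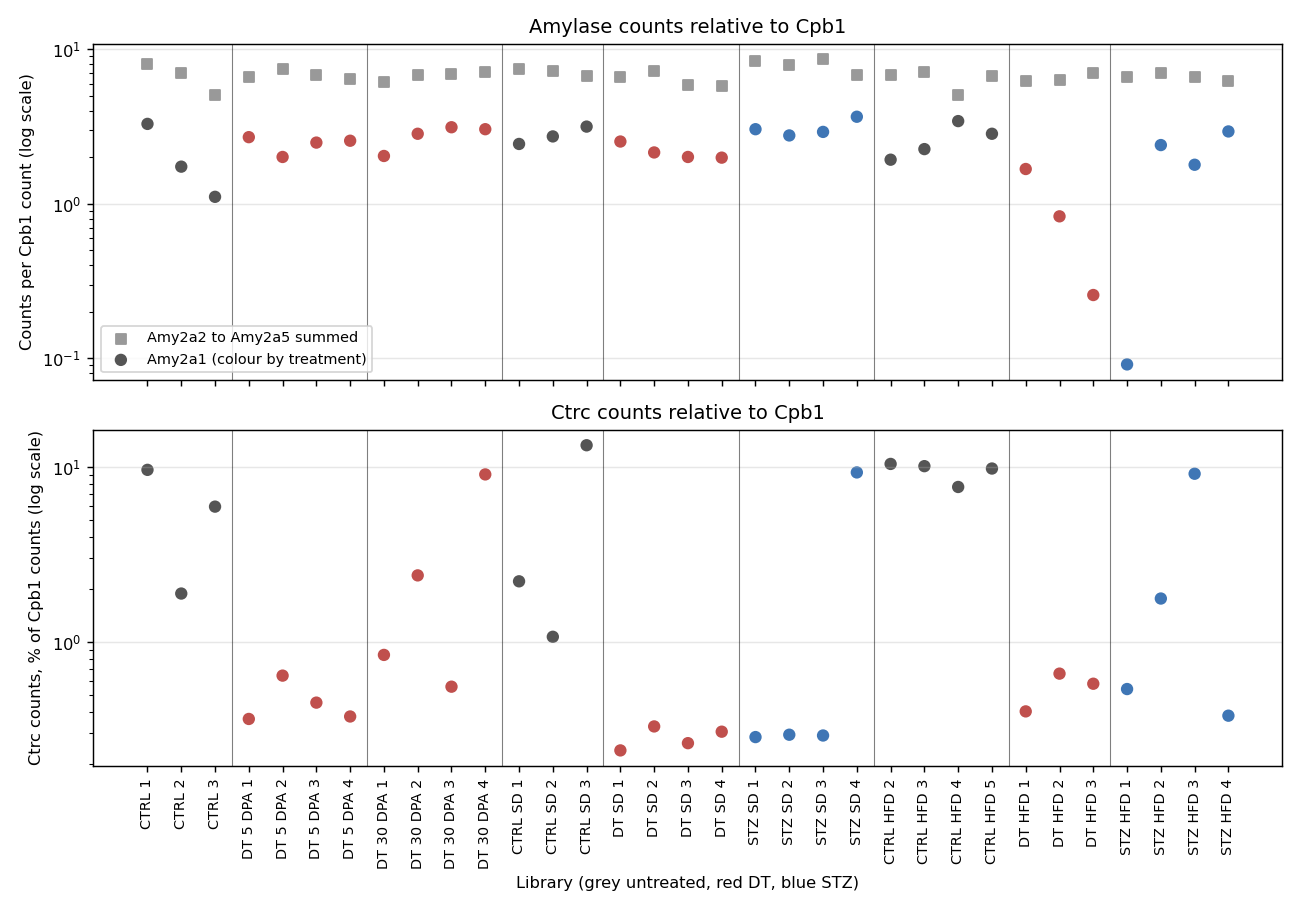
Upper panel: counts of Amy2a1 (circles) and of Amy2a2 to Amy2a5 summed (squares) per Cpb1 count, log axis; lower panel: Ctrc counts as a percentage of Cpb1 counts, log axis; one point per library, colours by treatment. The squares stay between 5.04 and 8.62 while Amy2a1 falls to 0.0914 in STZ HFD replicate 1, and Ctrc lies at 5.93% or more in 10 libraries and at 2.40% or less in 23.

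Among the chymotrypsins and elastases, Ctrc (chymotrypsin C, which trims and degrades trypsinogen) left the common pattern most. Its counts were 5.93% to 13.3% of those of Cpb1 in 10 libraries and 0.240% to 2.40% in the other 23, the widest gap in the ordered values. All 4 CTRL HFD libraries were in the upper set (10.4%, 10.1%, 7.68% and 9.79%), with CTRL replicates 1 and 3, CTRL SD replicate 3, DT 30 DPA replicate 4, STZ SD replicate 4 and STZ HFD replicate 3. None of the 4 DT 5 DPA (0.363% to 0.642%), 4 DT SD (0.240% to 0.329%) and 3 DT HFD libraries (0.401% to 0.659%) was. This split was noticed in the values and was not tested. The annotated Ctrc gene (chr4:141814962-141846359, minus strand) contains Cela2a (chr4:141814962-141826160) on the same strand, so reads of the abundant Cela2a could be counted for it; Ctrc counts were 0.157% to 12.6% of those of Cela2a. Cela2a over Cpb1 ranged only 2.51-fold.

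Ctrb1 was 1992, 369 and 2494 CPM in CTRL, 1380.5, 1976, 10918 and 2979 at 5 DPA, 4144, 1499, 10769 and 9049 at 30 DPA and 1169, 14135 and 25356 in CTRL SD. It was 14461, 7054, 22581 and 29471 in DT SD, 5309, 14273, 25125 and 770.2 in STZ SD, 10388, 4871, 3336 and 11744 in CTRL HFD, 1639, 1234 and 4075 in DT HFD and 1671, 1963, 13909 and 81799.8 in STZ HFD. DT HFD lay below DT SD without overlap, and overlapped CTRL HFD, whereas for Cpb1 DT HFD lay below both. Cela1, Cela3b and Ctrl had ratio ranges of 1.81-fold, 2.15-fold and 1.56-fold.

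The 6 trypsins lie in 1 cluster on chromosome 6, in the order Try4, Try5, Try10, Prss3, Prss1 and Prss2, from chr6:41302269 to chr6:41525079. Their transcripts share 88.4% to 97.1% of aligned positions, highest for Try4 and Try5, then 96.1% for Prss1 and Prss3, so reads may pass between them. Prss2 and Try4 had the highest CPM of the 6, except in CTRL replicate 3, where Try5 was highest, and Try4 exceeded Prss2 in every library at 5 and 30 DPA. Prss2 was 997, 137 and 1247 CPM in CTRL, 756, 913, 5563 and 1457 at 5 DPA, 2115, 787, 5711 and 4030.1 at 30 DPA and 700.4, 8799 and 16217 in CTRL SD. It was 10703, 4286, 15586 and 21209 in DT SD, 2911, 10581, 14356 and 515 in STZ SD, 4884, 3341, 2824 and 8040.2 in CTRL HFD, 1178, 687 and 2058 in DT HFD and 603, 1484, 8119.7 and 65969 in STZ HFD.

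The minor trypsins did not keep a fixed share of Prss2. Prss3 counts were 2.02% to 4.36% of those of Prss2 at 5 DPA and 0.731% to 1.01% in CTRL, 0.981% to 2.63% in DT SD and 0.397% to 0.518% in CTRL SD, and 1.27% to 1.88% in DT HFD and 0.246% to 0.479% in CTRL HFD. In each of these 3 pairs the DT libraries lay above the CTRL libraries without overlap; the ratio was picked after its values were seen and was not tested. At 30 DPA the range was 1.07% to 8.45%, likewise above CTRL without overlap. After STZ it was 0.259% to 1.02% on SD and 0.305% to 1.25% on HFD, overlapping CTRL on each diet. Try5 was 45.3% to 54.7% of Prss2 in DT SD and 21.3% to 24.5% in CTRL HFD, with the highest value, 117%, in CTRL replicate 3. Prss1 had 148 counts at most in a library and none in 4.

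The granule and other secreted members kept to the enzymes with an exception. Rnase1 (pancreatic ribonuclease) was 595, 93.9 and 472 CPM in CTRL, 415, 567, 3500.0 and 843 at 5 DPA, 1426, 576, 3751 and 2640.1 at 30 DPA and 337, 4025 and 8003 in CTRL SD. It was 4606, 2069, 6536 and 9099 in DT SD, 1429, 3716, 6101 and 197 in STZ SD, 3000.1, 1784, 1326 and 4750.0 in CTRL HFD, 662, 405 and 1432 in DT HFD and 319, 525, 4196 and 27856 in STZ HFD. Klk1 (tissue kallikrein) was 139, 22.1 and 98.7 CPM in CTRL, 105, 113, 716 and 205 at 5 DPA, 258, 93.7, 710.3 and 483 at 30 DPA and 49.2, 602 and 1081 in CTRL SD. It was 759, 409, 1116 and 1369.7 in DT SD, 299, 865, 1532 and 40.7 in STZ SD, 491, 303, 237 and 707 in CTRL HFD, 102, 74.1 and 212 in DT HFD and 73.6, 129, 821 and 5766 in STZ HFD. For both genes DT HFD lay below DT SD without overlap; it lay below CTRL HFD for Klk1 and overlapped it for Rnase1.

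Tff2, a trefoil peptide best known from stomach mucus, also ran with the enzymes: its log2 ratio to Cpb1 had an SD of 0.30, while the 8 stomach and Brunner gland markers summed to at most 30.8 CPM in any library. It was 45.3, 7.97 and 53.9 CPM in CTRL, 32.9, 43.6, 227 and 60.6 at 5 DPA, 94.9, 32.6, 253 and 165 at 30 DPA and 25.7, 241 and 464 in CTRL SD. It was 248, 108, 365 and 508 in DT SD, 139, 293, 563 and 16.2 in STZ SD, 222, 129, 69.4 and 277 in CTRL HFD, 47.8, 31.1 and 102 in DT HFD and 46.2, 52.4, 298 and 1841 in STZ HFD. Sycn, Cuzd1, Gp2 (the main granule membrane glycoprotein) and Erp27 (an ER protein of the disulfide isomerase family) had ratio SDs of 0.54, 0.30, 0.27 and 0.45. Serpini2 (pancpin, a serpin of acinar cells) had 0.29.

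Zg16, a lectin of zymogen granules that intestinal goblet cells make too, and Spink1, the trypsin inhibitor packed beside trypsinogen and also made in gut epithelium, were the exception. Zg16 was 380.4, 453 and 332 CPM in CTRL, 486, 830.2, 1999 and 688 at 5 DPA, 827, 581, 1972 and 1359 at 30 DPA and 225, 2817 and 5072 in CTRL SD. It was 2843, 1238, 4255 and 5121 in DT SD, 1906, 2643, 4592 and 1143 in STZ SD, 1892, 1309, 762 and 2727 in CTRL HFD, 619, 314 and 1034 in DT HFD and 450.4, 405, 2961 and 17976 in STZ HFD. CTRL replicate 2, the lowest library for most enzymes, had the highest Zg16 of its group. Spink1 was 14.9, 76 and 36.0 CPM in CTRL, 41.6, 57.7, 120.0 and 47.9 at 5 DPA, 48.0, 52.9, 109 and 86.7 at 30 DPA and 16.0, 172 and 275 in CTRL SD. It was 173, 82.7, 318 and 358 in DT SD, 109, 158, 299 and 123 in STZ SD, 125, 68.8, 37.8 and 142 in CTRL HFD, 35.2, 13.1 and 59.6 in DT HFD and 30.1, 25.6, 162 and 877 in STZ HFD.

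The ratio of both to Cpb1 was higher, by median, where enterocyte markers were high, and so was that of other members. In the 8 libraries with enterocyte markers above 500 CPM the log2 ratio of Spink1 to Cpb1 was -4.87 to -1.09 (median -3.93), against -6.25 to -4.23 (median -5.44) in the other 25; for Zg16 it was -0.91 to 1.65 (median -0.43) against -1.92 to -0.33 (median -1.35). The difference of medians was 1.92 for Bhlha15, 1.89 for Nr5a2 and 1.49 for Prss3, beside 1.51 for Spink1 and 0.91 for Zg16. For Pnlip the medians were 0.88 and 0.93 and for Prss2 0.16 in both. All 10 enterocyte markers, among them Sis (sucrase-isomaltase) and Fabp2, had counts in each of these 8 libraries, whereas in DT SD 4 to 6 of the 10 were at 0 in each library. All 10 also had counts in CTRL replicate 1, DT 5 DPA replicate 3 and DT 30 DPA replicates 1 and 3. So they did in CTRL SD replicate 1, CTRL HFD replicates 4 and 5, DT HFD replicate 3 and STZ HFD replicate 1. The 8 libraries with enterocyte markers above 500 CPM had acinar sums of 3356 to 52996 CPM, against a median of 50257 over all 33. The part of enterocyte content, acinar amount or treatment in these ratios was not tested.

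**Figure D4:**
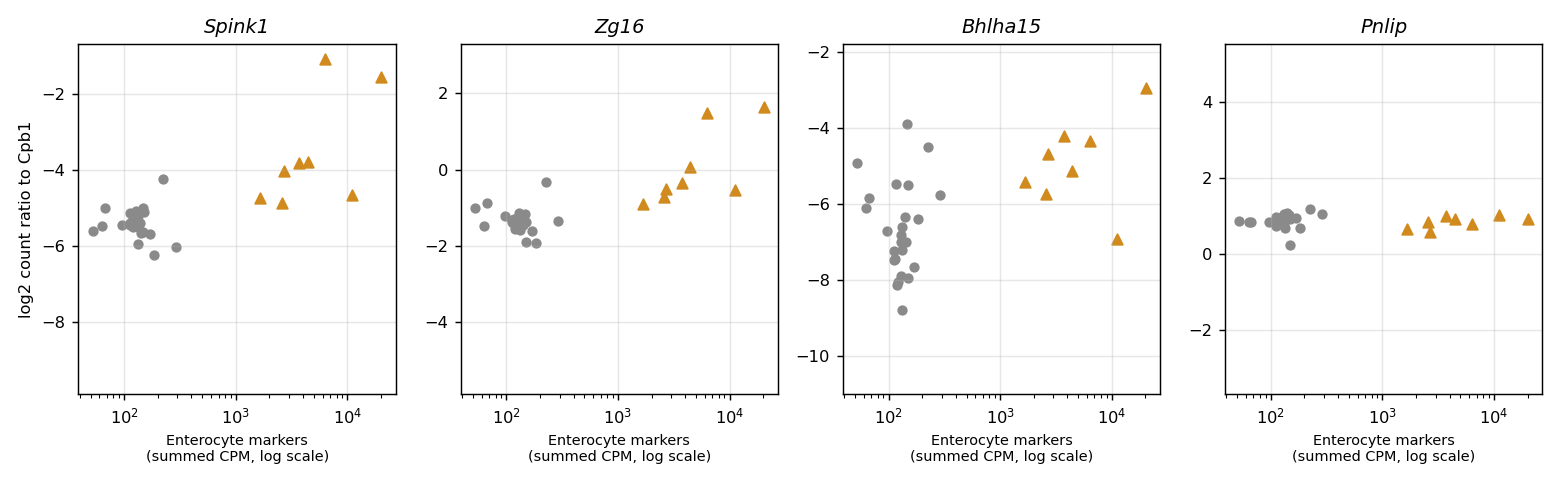
Log2 count ratio of Spink1, Zg16, Bhlha15 and Pnlip to Cpb1 against the summed CPM of 10 enterocyte markers (log axis) in 33 libraries; triangles are the 8 libraries above 500 CPM, and each panel spans the same number of log2 units. Spink1 reaches -1.09 and Zg16 1.65 among the triangles, while Pnlip has medians of 0.88 and 0.93 in the triangles and circles.

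Among the transcription factors, Ptf1a and Rbpjl followed the enzymes more closely than Bhlha15 and Nr5a2 did. Ptf1a, the DNA-binding subunit of PTF1, was 0.405, 0.180 and 3.50 CPM in CTRL, 0.919, 0.635, 5.6 and 1.37 at 5 DPA, 1.42, 0.703, 3.38 and 2.18 at 30 DPA and 0.387, 7.39 and 10.0 in CTRL SD. It was 5.57, 2.52, 5.39 and 11.4 in DT SD, 0.994, 3.22, 9.14 and 0.197 in STZ SD, 3.28, 2.47, 2.11 and 3.07 in CTRL HFD, 0.471, 0.598 and 1.46 in DT HFD and 0.0553, 0.365, 3.63 and 22.9 in STZ HFD. The last group's lowest value is a single count, and counts over all libraries ran from 1 to 159, so counting error is large at the low end. Rbpjl was 5.15, 1.98 and 23.3 CPM in CTRL, 4.40, 4.24, 36.2 and 6.32 at 5 DPA, 13.8, 6.20, 25.8 and 25 at 30 DPA and 2.81, 39.0 and 99.2 in CTRL SD. It was 55.6, 18.8, 55.8 and 56.9 in DT SD, 9.02, 50.6, 51.4 and 3.21 in STZ SD, 24.8, 18, 27.5 and 49.5 in CTRL HFD, 8.47, 7.77 and 19.9 in DT HFD and 2.87, 6.72, 43.1 and 161 in STZ HFD. The correlation of log2 CPM with Cpb1 over 33 libraries was 0.93 for Ptf1a and 0.96 for Rbpjl, against 0.76 for Bhlha15 and 0.59 for Nr5a2.

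Bhlha15 ranged only 15.4-fold over the 33 libraries and Nr5a2 14.8-fold, against 336-fold for Cpb1. Bhlha15 was 17.8, 7.91 and 27.5 CPM in CTRL, 26.8, 22.6, 33.8 and 29.6 at 5 DPA, 45.5, 39.8, 42.3 and 44.9 at 30 DPA and 34.1, 51.4 and 50 in CTRL SD. It was 43.4, 31.6, 62.1 and 51.8 in DT SD, 22.5, 40.2, 48.2 and 46.8 in STZ SD, 37.1, 28.7, 34.2 and 28.7 in CTRL HFD, 19.1, 20.6 and 32.9 in DT HFD and 24.6, 16.6, 49.1 and 122 in STZ HFD. Nr5a2 was 16.7, 11.1 and 15.5 CPM in CTRL, 7.09, 6.99, 6.47 and 6.91 at 5 DPA, 7.74, 2.56, 10.1 and 9.54 at 30 DPA and 3.19, 6.63 and 14.6 in CTRL SD. It was 14.6, 7.69, 13 and 12.3 in DT SD, 8.81, 8.46, 9.65 and 3.28 in STZ SD, 6.84, 9.63, 7.72 and 10.8 in CTRL HFD, 5.94, 2.33 and 6.75 in DT HFD and 8.62, 3.43, 9.06 and 34.4 in STZ HFD. STZ SD replicate 4, with a Cpb1 of 365 CPM, had 46.8 CPM of Bhlha15, within the range of its group, and 3.28 CPM of Nr5a2, the lowest of its group. For CTRL replicate 2 both were the lowest of the group. Which cells these transcripts came from was not tested.

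The genes were then compared between groups in an edgeR quasi-likelihood fit over all 17616 genes and 33 libraries, with Benjamini-Hochberg adjustment over all genes in each of 15 contrasts and a call at an adjusted p below 0.05. Only HFD against SD after DT called any of the 36, as the plot of fold changes by comparison shows. The comparisons share groups, so their values are given side by side and not as independent evidence.

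**Figure D5:**
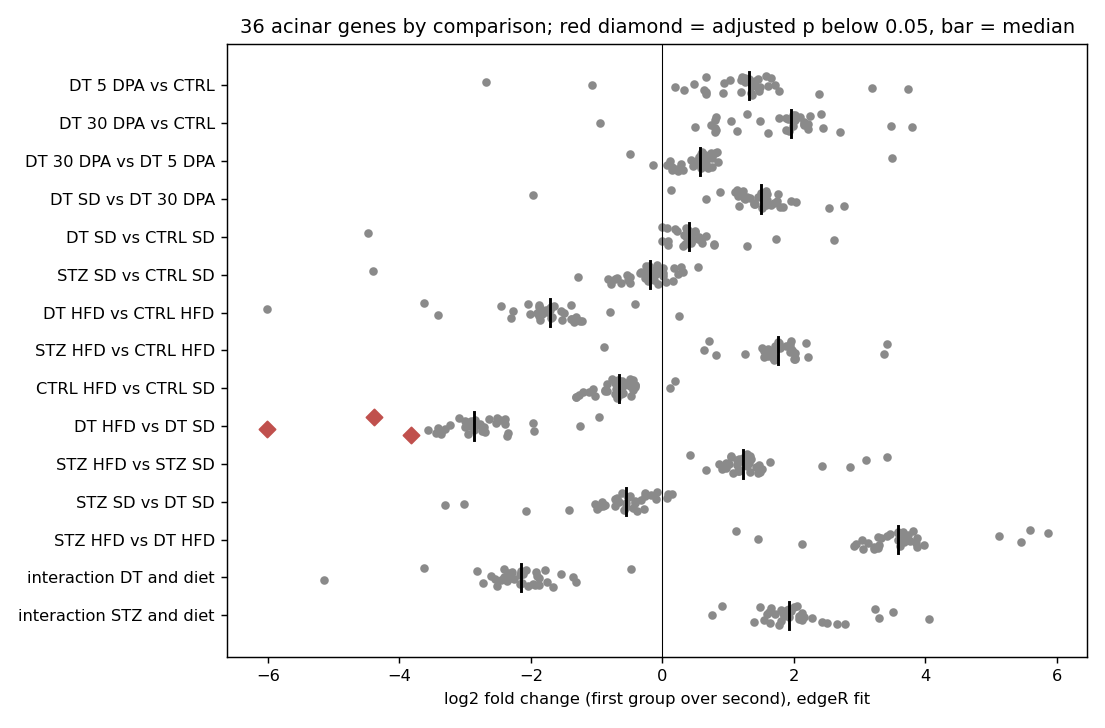
Log2 fold changes of the 36 acinar genes in 15 contrasts of the edgeR fit; each point is a gene, bars are medians over the 36, red diamonds are genes at an adjusted p below 0.05. The only diamonds are Prss1 at -6.02, Amy2a1 at -4.38 and Try5 at -3.83 in DT HFD against DT SD, where the median was -2.86.

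In DT HFD against DT SD, 3 of 36 genes (8.33%) were called, all lower, beside 23.5% of all genes tested called in either direction and 8.46% called lower. All 36 fold changes were below 0, with a median of -2.86 against -0.01 over all genes, and 32 of 36 had groups that did not overlap, all lower on HFD, beside 18.4% of all genes. Prss1 fell by 6.02 ± 1.81 (SE) on the log2 scale (edgeR adjusted p = 0.0199), a fitted value that rests on 3, 0 and 3 counts in DT HFD against 148, 59, 148 and 72 in DT SD. Try5 fell by 3.83 ± 1.31 (adjusted p = 0.0365) and Amy2a1 by 4.38 ± 1.61 (adjusted p = 0.0485), the latter subject to the split of reads between amylase copies: Amy2a2 stood at -2.79 ± 1.27 (adjusted p = 0.105). At an unadjusted p below 0.05 there were 29 of 36 (38.9% of all genes), and the DESeq2 Wald test called 27 (29.9% of all genes). A fit of these 2 groups alone called 34, a fit without a low-count filter 1, leaving out DT HFD replicate 2 or 3 called 0, and leaving out DT HFD replicate 1 or DT SD replicate 1, 3 or 4 called 1.

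By role, in the same contrast, the 6 fat-digesting genes had a median log2 fold change of -2.96 (-3.41 to -2.47), the 6 trypsins -3.46 (-6.02 to -2.95), the 7 elastases and chymotrypsins -2.53 (-2.99 to -1.97) and the 8 granule and other secreted genes -2.76 (-3.44 to -2.35). The transcription factors had -1.6: Ptf1a at -2.87, Rbpjl at -1.96, Nr5a2 at -1.25 and Bhlha15 at -0.96, with adjusted p from 0.105 to 0.224. Of the 10 enterocyte markers 5 were called higher in DT HFD (Apoa1, Apoa4, Fabp1, Fabp2 and Sis). The sum of the 10 was 2584 CPM in DT HFD replicate 1 and 52.3 and 66.7 in the other DT HFD libraries, against 112 to 133 in DT SD. By sum only replicate 1 thus stood above DT SD. Without the enterocyte-rich libraries 1 of the 36 acinar genes was called. Of 8 lymphocyte markers 6 were called higher and of 7 endocrine markers 3 lower (Ins1, Ins2 and Iapp), and their part in the acinar difference was not tested.

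After DT, against untreated CTRL, no gene of the set was called. At 5 DPA 34 of 36 fold changes were above 0 (median 1.31, all genes -0.05); 0 were called by edgeR beside 5.39% of all genes, 1 had an unadjusted p below 0.05 (19.1% of all genes) and 1 was called by DESeq2 (8.11%). Without DT 5 DPA replicate 3 the median was 0.25, with 26 of 36 above 0, and without CTRL replicate 2 it was 0.85. In the same contrast all 6 macrophage markers and 3 of 5 mesenchymal markers were called higher (list medians 2.25 and 2.04), and their part was not tested. Prss3 stood at 3.73 ± 1.39 (adjusted p = 0.123; DESeq2 0.0149), Prss1 at 3.19 ± 1.6 (0.28) and Nr5a2 at -1.07 ± 0.54 (0.283). At 30 DPA 35 of 36 were above 0 (median 1.95, all genes -0.02); 0 were called beside 0.233% of all genes, 4 had an unadjusted p below 0.05 (25.3%) and 2 were called by DESeq2 (11.1%). Bhlha15 stood at 1.28 ± 0.45 (adjusted p = 0.0879; DESeq2 0.0387), Prss3 at 3.80 ± 1.39 (0.0986; DESeq2 0.0195) and Prss1 at 3.47 ± 1.61 (0.175). Both contrasts use the same 3 CTRL libraries, of which replicate 2 is the lowest of the series in acinar RNA; without CTRL replicate 3 Bhlha15 was called at 30 DPA.

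Between 30 and 5 DPA 34 of 36 were above 0 (median 0.57, all genes 0.02); 0 were called beside 30.5% of all genes, 1 had an unadjusted p below 0.05 (41.4%) and DESeq2 called 1 (33.8%). Ctrc stood at 3.49 ± 1.39 (adjusted p = 0.0582; DESeq2 0.0126), Bhlha15 at 0.61 ± 0.40 (0.257) and Pnlip at 0.85 ± 1.06 (0.572). Without the enterocyte-rich libraries the set turned, with 33 of 36 below 0 and a median of -0.43; without DT 5 DPA replicate 3 the median was 1.65 and Ctrc was called. Macrophage markers fell in the same contrast, all 6 of them, and all 5 mesenchymal markers. From 30 DPA to 10 WPA on SD after DT, a contrast in which time and diet label both change, 35 of 36 were above 0 (median 1.5, all genes -0.03) and 0 were called beside 0.0568% of all genes, with 2 at an unadjusted p below 0.05 (11.0%) and 0 by DESeq2 (1.98%). Sycn stood at 2.76 ± 1.13 (adjusted p = 0.36), Try5 at 2.54 ± 1.10 (0.395) and Spink1 at 1.65 ± 0.86 (0.495).

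On SD at 10 WPA, DT against CTRL had 33 of 36 above 0 (median 0.40, all genes 0.02) and 0 called beside 0.0341% of all genes, with 1 at an unadjusted p below 0.05 (7.95%) and 1 by DESeq2 (0.876%). Without CTRL SD replicate 1 the direction turned, with 27 of 36 below 0 (median -0.13). Ctrc stood at -4.47 ± 1.48 (adjusted p = 0.437; DESeq2 0.0426), Prss3 at 2.61 ± 1.29 (0.64) and Prss1 at 1.73 ± 1.37 (0.77). STZ against CTRL had 26 of 36 below 0 (median -0.18, all genes 0.02) and 0 called beside 0.00568% of all genes, with 1 at an unadjusted p below 0.05 (11.3%) and 1 by DESeq2 (4.15%). The median turned to 0.54 without the enterocyte-rich libraries, to 0.63 without CTRL SD replicate 3, to 0.16 without STZ SD replicate 4 and to 0.02 without STZ SD replicate 1. Ctrc stood at -4.40 ± 1.47 (adjusted p = 0.175; DESeq2 0.018), Prss1 at -1.28 ± 1.37 (0.902) and Try5 at -0.78 ± 1.11 (0.941). STZ against DT had 33 of 36 below 0 (median -0.55, all genes 0.04) and 0 called beside 2.56%, with 2 at an unadjusted p below 0.05 (19.4%) and 1 by DESeq2 (7.70%); 2 did not overlap, both lower after STZ, beside 4.29% of all genes. Without the enterocyte-rich libraries the median was 0.15, with 23 of 36 above 0. Prss3 stood at -3.30 ± 1.19 (adjusted p = 0.117; DESeq2 0.027) without overlap between the groups, Prss1 at -3.01 ± 1.33 (0.207) and Try5 at -2.07 ± 1.08 (0.295).

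On HFD, DT against CTRL had 35 of 36 below 0 (median -1.71, all genes 0.03) and 0 called beside 0.00568% of all genes, with 2 at an unadjusted p below 0.05 (11.9%) and 1 by DESeq2 (0.358%); 20 of 36 did not overlap, all lower, beside 6.40% of all genes. Ctrc stood at -6.01 ± 1.78 (adjusted p = 0.33; DESeq2 0.00201; 0.027 in a fit of the 2 groups alone), Amy2a1 at -3.62 ± 1.54 (0.381) and Prss1 at -3.42 ± 1.71 (0.421). STZ against CTRL had 35 of 36 above 0 (median 1.77, all genes 0.02) and 0 called beside 0.471%, with 2 at an unadjusted p below 0.05 (13.7%) and 1 by DESeq2 (3.12%). That direction rests on STZ HFD replicate 4: without it 33 of 36 were below 0 (median -0.42). Prss3 stood at 3.37 ± 1.20 (adjusted p = 0.19; DESeq2 0.0381), Cela3a at 3.42 ± 1.47 (0.296) and Cela2a at 2.19 ± 1.09 (0.379), the last at -0.18 without that library. STZ against DT had 36 of 36 above 0 (median 3.59, all genes 0) and 0 called by edgeR beside 0.341%, with 35 at an unadjusted p below 0.05 (15.6% of all genes) and 29 called by DESeq2 (4.35%), although the groups overlapped for each of the 36, beside 11.1% of all genes without overlap. Without STZ HFD replicate 4 the median was 1.26, with 36 of 36 still above 0. Amy2a1 stood at 5.59 ± 1.71 (adjusted p = 0.113), Prss1 at 5.45 ± 1.79 (0.139) and Cela3a at 5.87 ± 1.94 (0.143).

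Diet alone, CTRL HFD against CTRL SD, had 34 of 36 below 0 (median -0.66, all genes 0.01) and 0 called beside 0% of all genes, with 0 at an unadjusted p below 0.05 (2.49%) and 0 by DESeq2 (0.137%). Without CTRL SD replicate 3 the median was 0.16, with 24 of 36 above 0. Try5 stood at -1.31 ± 1.12, Try4 at -1.32 ± 1.14 and Bhlha15 at -0.49 ± 0.43, each with an edgeR adjusted p of 1. STZ HFD against STZ SD had 36 of 36 above 0 (median 1.23, all genes 0) and 0 called beside 0.136%, with 3 at an unadjusted p below 0.05 (13.0%) and 0 by DESeq2 (3.60%). Here too 1 library set the direction: without STZ HFD replicate 4 33 of 36 were below 0 (median -0.98). Prss3 stood at 2.86 ± 1.17 (adjusted p = 0.265), Cela3a at 3.42 ± 1.48 (0.303) and Ctrc at 3.09 ± 1.36 (0.316). The interactions, which test whether the diet difference after ablation departs from that in CTRL, called 0 of 36 for DT (0% of all genes; median -2.15) and 0 for STZ (0% of all genes; median 1.93), each with 1 gene at an unadjusted p below 0.05 (15.6% and 6.60% of all genes) and 0 by DESeq2 (0.733% and 0.339%). Without STZ HFD replicate 4 the STZ median was -0.23, with 27 of 36 below 0. For DT the smallest p was that of Prss1, at -5.15 ± 2.20 (adjusted p = 0.293), then Amy2a1 at -3.62 ± 2.00 (0.357) and Nr5a2 at -1.36 ± 0.79 (0.374). For STZ it was Prss3 at 4.06 ± 1.65 (0.701), then Ctrc at 3.51 ± 1.87 (0.822) and Try5 at 2.78 ± 1.54 (0.837).

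A second list of acinar genes, made of further amylase and trypsin copies, the secretagogue receptors Cckar, Chrm1 and Chrm3 and parts of the secretion machinery, gave 25 genes in the table, all tested. In DT HFD against DT SD 5 of the 25 were called lower and 1 higher, near the 23.5% of all genes called in either direction. Of all genes 8.46% were called lower. Lower were Rab3d, a GTPase on zymogen granules, at -1.43 ± 0.33 (edgeR adjusted p = 0.00562), and Chrm3, the muscarinic receptor that answers acetylcholine, at -1.65 ± 0.41 (0.00809). So were the trypsin-like genes 1810009J06Rik (-8.47 ± 2.51, 0.019), Gm10334 (-4.24 ± 1.47, 0.0381) and Gm5771 (-3.76 ± 1.36, 0.0455). The fitted value of 1810009J06Rik rests on 0, 0 and 0 counts in DT HFD against 65, 25, 31 and 38 in DT SD. Itpr3, a calcium channel of the ER, was higher, at 0.94 ± 0.17 (0.00348). Rab3d, Chrm3 and Itpr3 are made by other cells as well, and their log2 CPM had correlations with Cpb1 of 0.66, 0.49 and -0.20 over 33 libraries. At 5 DPA against CTRL Gm5771 (6.78 ± 1.70, edgeR adjusted p = 0.0162) and Vamp8 were higher and Itpr3 (-0.61 ± 0.17, 0.0353) lower. This Gm5771 value rests on 11, 1 and 0 counts in CTRL. From 5 to 30 DPA Chrm1 and Chrm3 (1.31 ± 0.37, 0.00911) were higher and Vamp8 lower. Chrm1 had only 42, 274, 51 and 78 counts at 30 DPA and 16, 35, 32 and 19 at 5 DPA. The library with 274 is the enterocyte-rich DT 30 DPA replicate 2. Beside these 3 calls in each contrast stand 5.39% and 30.5% of all genes. In the other 12 contrasts none of the 25 was called by edgeR.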

How the data were processed

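RNA of 34 islet libraries had been extracted with an RNeasy Mini kit and made into libraries with a QIAseq stranded mRNA kit, per the labels' protocols. The genome was mm10, per the submitters' processing notes; which aligner and counter were run, and whether strand was used, is not stated. Per the file headers, the authors deposited raw total counts, RPKM and TPM for each gene. RPKM values as deposited were not used. Deposited TPM served to order genes by level. Columns headed CPM in the deposited table do not sum to a common total, so they were treated as a score and not used.

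The 36 members and all lists were chosen with earlier results of these data known. Counts were fitted with edgeR 4.0.16 (R 4.3.3, limma 3.58.1): TMM scaling, filterByExpr (minimum count 10, minimum total 15), 1 quasi-likelihood fit of 33 libraries in 9 groups, 15 contrasts, and Benjamini-Hochberg adjustment over 17616 genes. Ratios were log2 of counts plus 0.5, for genes with at least 20 counts, compared with exact two-sided permutation tests within diet or treatment and adjusted over 12 tests (NumPy 2.4.6). Named fold changes are those of called members and, where fewer than 3 were called, of the smallest p up to 3 in all. The SE beside a fold change is its absolute log2 value divided by the square root of the quasi-likelihood F statistic. It was not estimated separately. Alternatives were DESeq2 1.42.0, other scalings and filters, compared groups alone, a replicate block, Cpa1 as denominator, and leaving out libraries. The edgeR fit, and no other step, was tested on simulated counts. Of the gene IDs 48349 (99.26%) were in GENCODE M21. The library with conflicting labels was left out of all comparisons. Total counts were 11083117 to 18918348 per library.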

Additional observations from a re-analysis of the deposited data

Results flagged for a closer look

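In groups of 4 libraries, 21 quantities were examined in 6 groups, 126 examinations in all, for a library whose gap to its nearest neighbour took more of the group's range than Dixon's 95% critical value. For normally distributed values chance gives about 1 in 20, and 30 were found. CPM was examined without a log, and summed CPM spanned up to 83.7-fold inside a group. The number found therefore cannot be set against chance, and log CPM was not examined. The quantities are also not independent, since most follow the amount of acinar RNA. DT 5 DPA replicate 3 stood above its group in summed acinar CPM (93291) and in CPM of Amy2a1 (12628), Pnlip (8428), Clps (2929), Cpb1 (5062), Ctrb1 (10918), Prss2 (5563), Ptf1a (5.6), Rbpjl (36.2), Tff2 (227), Rnase1 (3500.0) and Klk1 (716). STZ HFD replicate 4 stood above its group in the sum (922431) and in CPM of Amy2a1 (159700.2), Pnlip (86996), Clps (36501), Cpb1 (54253), Ctrb1 (81799.8), Prss2 (65969), Spink1 (877), Zg16 (17976), Ptf1a (22.9), Tff2 (1841), Rnase1 (27856) and Klk1 (5766).

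DT SD replicate 2 was low in Rbpjl, at 18.8 CPM. STZ HFD replicate 1 was apart in 3 log2 count ratios, at -4.64 for Amy2a1 to Pnlip, -3.45 for Amy2a1 to Cpb1 and 0.39 for Clps to Cpb1. STZ SD replicate 4 was high in Ctrc to Cpb1, at -3.43.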

How the results depend on the processing

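Counts of called genes changed as follows. With the DESeq2 Wald test they were 1 for DT 5 DPA against CTRL, 2 for DT 30 DPA against CTRL, 1 for DT 30 DPA against DT 5 DPA, 1 for DT SD and 1 for STZ SD against CTRL SD, 1 for DT HFD and 1 for STZ HFD against CTRL HFD, 27 for DT HFD against DT SD, 1 for STZ SD against DT SD and 29 for STZ HFD against DT HFD. With the compared groups alone they were 1 for DT 5 DPA against CTRL, 1 for DT 30 DPA against DT 5 DPA, 1 for DT HFD against CTRL HFD and 34 for DT HFD against DT SD. For the last, no low-count filter gave 1 and leaving out the enterocyte-rich libraries 1. Leaving out 1 library at a time gave 0 to 4 there, 0 to 1 for DT 30 DPA against CTRL and 0 to 1 for DT 30 DPA against DT 5 DPA. The cause of these changes was not tested. Replicate numbers recur across groups, but libraries with the same number did not deviate together (mean correlation 0.03 over 115 pairs, -0.66 to 0.65; 14 libraries correlated best with their own number). With the replicate block 2 genes were called in DT HFD against DT SD.

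Log2 ratios moved as well. With Cpa1 as denominator, Amy2a1 by diet was -0.94, Pnlip by diet 0.04 and Clps after DT 0.03. Without the enterocyte-rich libraries Amy2a1 to Cpb1 by diet was -1.26. With 5 amylase copies summed, Amy2a1 to Pnlip was -0.19 after DT and 0.07 after STZ, and to Cpb1 0.02 after STZ. Leaving out 1 library at a time gave, for diet, DT and STZ in turn, -1.19 to -0.56, -1.36 to -0.68 and -0.80 to 0.12 for Amy2a1 to Pnlip, and -1.30 to -0.71, -1.41 to -0.73 and -0.82 to 0.01 for Amy2a1 to Cpb1. In the same order it gave -0.15 to -0.09, -0.09 to -0.04 and -0.11 to -0.02 for Pnlip to Cpb1, and 0.03 to 0.20, -0.16 to 0.10 and -0.0031 to 0.26 for Clps to Cpb1. Clps after DT turned to 0.01 without CTRL SD replicate 1 or DT SD replicate 1, 0.02 without CTRL HFD replicate 5 and 0.05 without DT HFD replicate 2. Among named genes, 3 fold changes turned: Pnlip, DT 30 DPA against DT 5 DPA, to -0.22 without the enterocyte-rich libraries, Cela2a, STZ HFD against CTRL HFD, to -0.18 without STZ HFD replicate 4 (range to 2.58), and Ctrc in the STZ interaction to -0.26 without CTRL SD replicate 3 (range to 4.09); 693 other values kept direction and side of the threshold, 17 newly passed it and 19 no longer did. Without replicate 4 the STZ HFD mean of summed CPM was 51806 in place of 269462; the SD of that group exceeds its mean.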

Other observations

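The library whose title and treatment label conflict held 7.50% of its counts in the 36 genes (95% Wilson interval 7.491% to 7.518%), with 66834 counts of Amy2a1, 35778 of Amy2a2, 24 of Prss1 and 50 of Ptf1a.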
